A study of Homo sapiens with 6 samples.

Results

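The genes described here carry out the last step of autophagy, in which the autophagosome fuses with the lysosome. They are the rows of the deposited count table whose symbol is STX17, SNAP29, VAMP8, RAB7A, EPG5, VPS39, VPS41 or PLEKHM1. All 8 genes were found among 29122 rows, 1 row each, and all 8 passed the filter on low counts, which left 15907 tested genes. Polyadenylated RNA was sequenced from A549, an established epithelial line from a human lung carcinoma. The 3 BCLAF1-depleted libraries came from A549 cells that stably carried a short hairpin RNA against BCLAF1, delivered by lentivirus, and the 3 control libraries from the same line with a firefly luciferase hairpin, which has no human target gene. All 6 libraries therefore come from transduced cells that carry a hairpin, and whether the stable lines were clones or pools is not stated in the labels. The series title names autophagy flux, blocked by MED23 of the Mediator complex together with BCLAF1, as the question, alongside premature senescence.

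Autophagosomes are closed, double-membraned vesicles that must fuse with lysosomes before their cargo can be degraded. Fusion is driven by SNARE proteins. STX17 on the autophagosome and the soluble adaptor SNAP29 pair with VAMP8 on the lysosome, and the helical bundle they form pulls the membranes together. The small GTPase RAB7A marks late endosomes and lysosomes and recruits tethers that hold the membranes in reach before the SNAREs zip up. The HOPS complex is the main tether, with VPS39 and VPS41 at its ends, where they bind GTPases on each membrane. PLEKHM1 links RAB7A, HOPS and the ATG8 proteins of the autophagosome, and EPG5, first described in Caenorhabditis elegans, is a RAB7A effector that stabilises the SNARE assembly.

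BCLAF1, the nuclear protein targeted by the hairpin, had 39.0, 35.7 and 53.1 CPM in its own depleted libraries, in replicate order, against 211, 199 and 203 CPM in the controls, so its transcript was low in each library labelled as depleted. CPM are counts scaled to library size, here with TMM factors. Library totals ranged from 33409158 to 40820922 counts in BCLAF1-depleted cells and from 41019185 to 43928927 in controls. BCLAF1-depleted replicate 3 differed from the other libraries in that mitochondrial transcripts took 19.3% of its counts, against 10.5 to 11.4% in the other 5 libraries, and its TMM factor was 0.795. Of 6 epithelial markers 5 lay above 1 CPM (KRT19 did not), and their summed level was 27848 to 39386 CPM in BCLAF1-depleted and 35712 to 36822 CPM in control libraries, scaled by library totals only. Of 5 markers of alveolar type II cells, from which the line is often said to derive, only ABCA3 did (sums of 18.7 to 28.5 CPM in BCLAF1-depleted and 31.7 to 37.4 CPM in control libraries). Leukocyte markers were at 1.23 to 1.84 CPM in sum in BCLAF1-depleted and 0.707 to 2.09 CPM in control libraries, with CD3E and MS4A1 not among the rows, endothelial markers at 1.71 to 2.99 CPM in BCLAF1-depleted and 1.90 to 2.51 CPM in control libraries, and fibroblast markers at 12.6 to 15.5 CPM in BCLAF1-depleted and 24.7 to 27.2 CPM in control libraries. Among the fibroblast markers, COL1A1 had 9.89 CPM in BCLAF1-depleted and 17.7 CPM in control cells (TMM-scaled means). In the same order DCN had 3.02 and 2.82 CPM, LUM 2.01 and 2.56 CPM, and COL1A2 0.544 and 0.477 CPM. PDGFRA did not pass the filter on low counts. The labels do not say whether replicates were separate cultures, so the p-values speak only of library-to-library spread, possibly technical.

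The levels of the 8 genes did not move together. VAMP8 was the only one that rose in BCLAF1-depleted cells, and VPS39 and EPG5 fell. STX17, SNAP29, RAB7A, VPS41 and PLEKHM1 did not pass the threshold, an adjusted p under 0.05 in edgeR's quasi-likelihood test across all 15907 genes. Thus 1 gene was called higher and 2 lower, 37.5% of the 8, where 35.8% of all tested genes were called (17.8% higher and 18% lower). That share is close to the background, so the number of calls is no result about the fusion genes as a set, and the single genes are described in turn. The median log2 fold change of the 8 was -0.14, against 0.02 over all tested genes. Log2 fold changes compare BCLAF1-depleted with control cells and carry ± SE throughout.

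**Figure D1:**
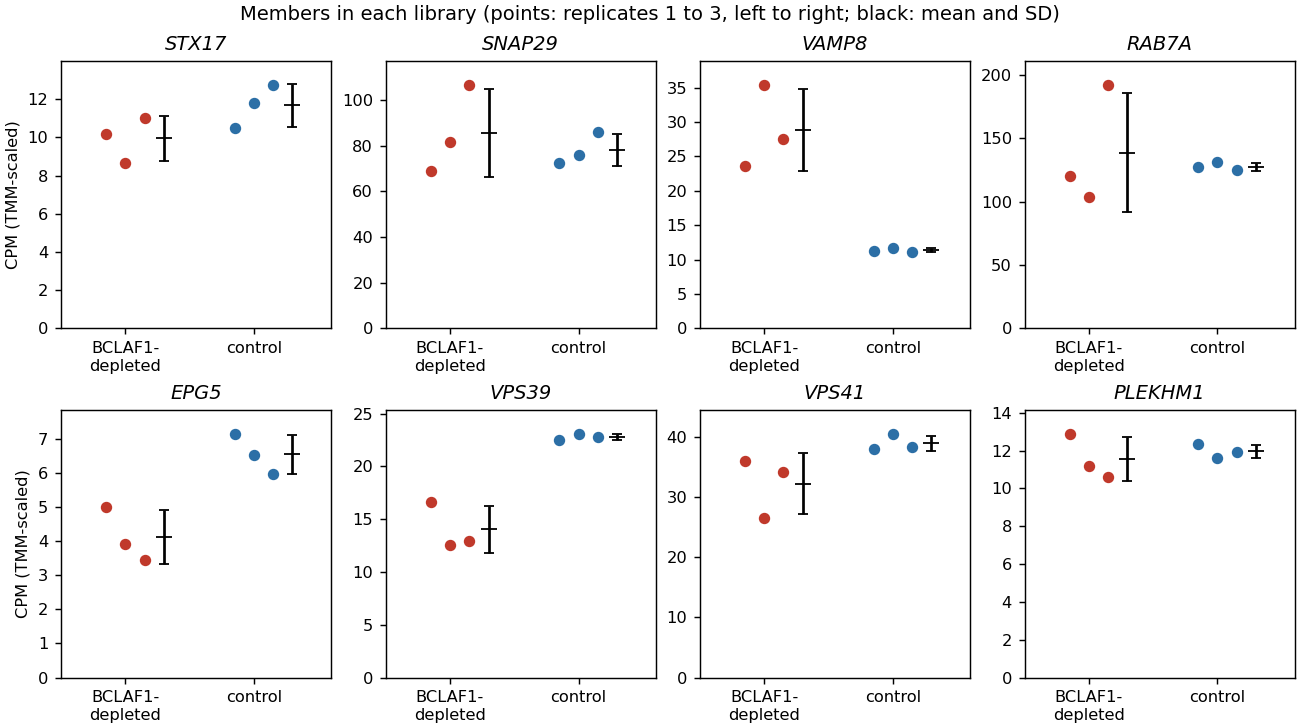
TMM-scaled CPM of the 8 genes in each library, with BCLAF1-depleted libraries in red on the left and control libraries in blue on the right of each panel, and the mean and SD (n = 3) in black; each y axis starts at 0 and has its own range. VAMP8 lies at 23.6 to 35.3 CPM in all depleted libraries and at 11.1 to 11.6 CPM in controls, VPS39 and EPG5 lie below every control, and RAB7A and SNAP29 are spread widely by BCLAF1-depleted replicate 3.

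Promoter sequences are given for the members that carried the calls, where the RefSeq table (GRCh38.p14) held them, and for SNAP29, because it alone held the motif searched. Lysosomal and autophagy genes are often controlled by TFEB and related factors, which bind the CLEAR element, so the 250 bases before each start were searched for the E-box CACGTG and for the CLEAR letters, here that E-box with GT before it and AC after it. Both read the same on either strand, and each CLEAR match holds an E-box. Of 35116 RefSeq promoters, 0.308% held the CLEAR letters and 6.34% the E-box. RefSeq promoters were matched for SNAP29, VAMP8, RAB7A, VPS39, VPS41 and PLEKHM1, 6 of the 8 genes, and none held the CLEAR letters. Only exact matches were searched, so near matches were not counted. An E-box, in capitals below, was found for SNAP29, centred 182 bases before the start. This E-box has gc before it and ac after it, where the CLEAR letters have GT and AC. The VAMP8 window (chr2:85577336-85577585, plus strand) was 52.8% GC with 6 CG pairs, that of VPS39 (chr15:42208305-42208554, minus strand) 52% with 12, and that of SNAP29 (chr22:20858757-20859006, plus strand) 73.6% with 31. For VAMP8 and VPS41 the searched windows lie inside the GENCODE gene spans given below. The bases before the outer GENCODE starts of these genes were not searched. A match is a run of letters and does not show binding. The 250 bases are written from far to near the start, 5′ to 3′ on the strand of the gene.
VAMP8: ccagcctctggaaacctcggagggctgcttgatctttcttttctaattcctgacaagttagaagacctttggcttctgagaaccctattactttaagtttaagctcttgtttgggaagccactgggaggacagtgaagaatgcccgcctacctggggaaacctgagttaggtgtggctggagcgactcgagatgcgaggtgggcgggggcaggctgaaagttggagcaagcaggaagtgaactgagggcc
VPS39: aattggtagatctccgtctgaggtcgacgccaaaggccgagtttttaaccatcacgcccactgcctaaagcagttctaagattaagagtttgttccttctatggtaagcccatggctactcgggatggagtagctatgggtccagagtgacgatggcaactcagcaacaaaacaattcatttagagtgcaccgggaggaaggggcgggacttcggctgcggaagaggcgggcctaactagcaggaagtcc
SNAP29: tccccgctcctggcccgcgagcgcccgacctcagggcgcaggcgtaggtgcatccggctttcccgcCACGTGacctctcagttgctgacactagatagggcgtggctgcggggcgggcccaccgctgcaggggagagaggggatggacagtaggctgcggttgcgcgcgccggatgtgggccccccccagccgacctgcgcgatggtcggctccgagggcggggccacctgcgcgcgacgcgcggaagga

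Of the SNAREs that form the fusion bundle, VAMP8 rose and the other two did not pass the threshold. VAMP8 (ENSG00000118640.9) encodes the lysosomal R-SNARE, which also serves regulated exocytosis and late endosome fusion. It lies on the plus strand of chromosome 2, from 85561562 to 85582031 in GRCh38. Its level was 23.6, 35.3 and 27.5 CPM in BCLAF1-depleted replicates 1, 2 and 3, against 11.3, 11.6 and 11.1 CPM in the control replicates. Every depleted library lay above the highest control, and the controls were nearly level with each other. The means were 28.8 ± 5.96 CPM in BCLAF1-depleted and 11.4 ± 0.259 CPM in control cells (SD, n = 3 each), a log2 fold change of 1.34 ± 0.16 (edgeR adjusted p = 0.000332), or 2.54-fold. Of all tested genes, 97% had a lower log2 fold change. VAMP8 stayed past the threshold in all 18 alternative settings, at 0.95 to 1.45.

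STX17 (ENSG00000136874.9; chromosome 9, 99906633 to 99970341, plus strand) encodes the hairpin-anchored Qa-SNARE that is recruited to finished autophagosomes. It had 10.2, 8.65 and 11.0 CPM in the BCLAF1-depleted replicates, against 10.5, 11.8 and 12.7 CPM in the control replicates. The groups overlapped, because BCLAF1-depleted replicate 3 exceeded control replicate 1. The means of 9.94 ± 1.19 CPM in BCLAF1-depleted and 11.7 ± 1.12 CPM in control cells (SD, n = 3 each) gave a log2 fold change of -0.23 ± 0.14 (edgeR adjusted p = 0.227). The antisense gene AL358937.1 shares 146 bases of STX17 exons on the other strand. No source states a strand setting for the counting, so whether reads of the pair were told apart is not known.

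SNAP29 (ENSG00000099940.10; chromosome 22, 20858983 to 20891218, plus strand) encodes the Qbc-SNARE, which gives both middle helices of the bundle and has no membrane anchor. Its level was 68.8, 81.5 and 106 CPM in the BCLAF1-depleted replicates, against 72.5, 75.8 and 86.2 CPM in the control replicates. Depleted libraries lay both below and above the whole control range. The log2 fold change was 0.13 ± 0.16 (edgeR adjusted p = 0.558), smaller than the spread, and it was -0.06 without BCLAF1-depleted replicate 3 and -0.12 when libraries were scaled by their totals alone. Exons of PI4KA on the opposite strand cover 225 bases of SNAP29 exons (4.54%) and those of AC007308.1 cover 373 bases (7.53%), with the same limit.

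Ratios between genes within a library do not depend on how the libraries are scaled, and levels between genes can be set side by side only per length, so they were taken from the deposited FPKM values, which are divided by gene length and library total. VAMP8 had 1.49, 1.88 and 1.12 times the FPKM of SNAP29 in the depleted replicates, against 0.676, 0.665 and 0.559 times in the controls. The order of these SNAREs thus differed between the groups: VAMP8 stood above SNAP29 in each depleted library and below it in each control. VAMP8 made up 55.6, 62.3 and 49.8% of the summed FPKM of the 3 SNAREs in the depleted replicates, against 36.4, 35.7 and 32.03% in the controls. The share of STX17 was 6.98, 4.45 and 5.80% in the depleted replicates, against 9.82, 10.6 and 10.7% in the controls. STX17 was the least abundant of the 3 transcripts in every library. The log2 ratio of SNAP29 to VAMP8 differed by -1.21 (-0.55 ± 0.37 in BCLAF1-depleted and 0.66 ± 0.15 in control libraries, SD, n = 3 each) and that of STX17 to VAMP8 by -1.55 (-3.30 ± 0.44 in BCLAF1-depleted and -1.74 ± 0.15 in control libraries). With the trends of length and GC content removed, which FPKM does not do, these differences were smaller, at -0.74 for SNAP29 to VAMP8 and -1.07 for STX17 to VAMP8. On the FPKM values both had an exact two-sided permutation p of 0.1, the smallest that 3 against 3 libraries allow, and 0.15 after Benjamini-Hochberg adjustment over 6 ratios. STX17 to SNAP29 differed by -0.34 (-2.75 ± 0.29 in BCLAF1-depleted and -2.41 ± 0.06 in control libraries, exact permutation p = 0.3).

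At the ends of HOPS, VPS39 fell and VPS41 did not pass the threshold. VPS39 (ENSG00000166887.14, chromosome 15, 42158701 to 42208316, minus strand) encodes a subunit that in yeast binds the RAB7 homologue. It had 16.6, 12.5 and 13.0 CPM in the BCLAF1-depleted replicates, against 22.5, 23.0 and 22.7 CPM in the control replicates. Each depleted library lay well under the controls, which spanned less than a single CPM. The means were 14.04 ± 2.25 CPM in BCLAF1-depleted and 22.7 ± 0.275 CPM in control cells (SD, n = 3 each), with a log2 fold change of -0.70 ± 0.14 (edgeR adjusted p = 0.00471), 61.7% of the control level. This call held in all 18 alternative settings, at -0.97 to -0.55.

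VPS41 (ENSG00000006715.14; chromosome 7, 38722963 to 38932394, minus strand), which also acts in regulated secretion, had 36.0, 26.5 and 34.2 CPM in the BCLAF1-depleted replicates, against 38.0, 40.4 and 38.4 CPM in the control replicates. The groups did not overlap, which held for 3 of the 8 genes as lower (26.6% of all tested genes) and 1 as higher (25.3%), 51.9% of tested genes in all, but BCLAF1-depleted replicate 1 came close to the lowest control. At -0.27 ± 0.14 on the log2 scale VPS41 missed the threshold (edgeR adjusted p = 0.137) but passed it without that library (-0.38, adjusted p = 0.0274) and on log2(FPKM + 1) (-0.48, limma adjusted p = 0.0406). It was -0.01 (adjusted p = 0.946) once the trends of fold change with exon length and GC content were removed. The FPKM of VPS41 was 1.79, 1.75 and 2.17 times that of VPS39 in the depleted replicates, against 1.40, 1.45 and 1.39 times in the controls. The log2 ratio of VPS39 to VPS41 differed by -0.42 (-0.92 ± 0.17 in BCLAF1-depleted and -0.50 ± 0.03 in control libraries, exact permutation p = 0.1, adjusted 0.15).

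EPG5 (ENSG00000152223.11; chromosome 18, 45847609 to 45967339, minus strand), the tether whose inherited loss causes Vici syndrome, was the least abundant of the 8 genes. It had 4.99, 3.93 and 3.45 CPM in the BCLAF1-depleted replicates, against 7.13, 6.54 and 5.97 CPM in the control replicates, from 112 to 315 counts per library. No depleted library reached the lowest control. The means of 4.12 ± 0.786 CPM in BCLAF1-depleted and 6.54 ± 0.581 CPM in control cells (SD, n = 3 each) gave a log2 fold change of -0.66 ± 0.18 (edgeR adjusted p = 0.0162). The call was less firm than that of VPS39: the adjusted p was 0.0757 without control replicate 1, 0.0581 without control replicate 2 and 0.0507 with the length and GC trends removed (-0.44). On log2(FPKM + 1) without a filter it was -0.25 (limma adjusted p = 0.0700). The log2 ratio of EPG5 to RAB7A differed by -0.75 (-7.53 ± 0.65 in BCLAF1-depleted and -6.78 ± 0.11 in control libraries, exact permutation p = 0.1, adjusted 0.15), by -0.37 without BCLAF1-depleted replicate 3 and by -0.46 with the trends removed.

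RAB7A (ENSG00000075785.11; chromosome 3, 128726122 to 128814796, plus strand) was the most abundant of the 8. Its level was 120.4, 104 and 192 CPM in the BCLAF1-depleted replicates, against 127, 131 and 125 CPM in the control replicates. BCLAF1-depleted replicates 1 and 2 lay under all controls and replicate 3, the library with the high mitochondrial share, lay far above them; the part of that share in its level was not tested. At 0.12 ± 0.20 on the log2 scale the difference missed the threshold (edgeR adjusted p = 0.674). It was -0.19 without replicate 3 (adjusted p = 0.216) and -0.14 when libraries were scaled by their totals alone, so no direction can be given.

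PLEKHM1 (ENSG00000225190.7; chromosome 17, 45435900 to 45490749, minus strand) had 12.9, 11.2 and 10.6 CPM in the BCLAF1-depleted replicates, against 12.3, 11.6 and 11.9 CPM in the control replicates. The depleted libraries spread on both sides of the controls. The log2 fold change was -0.05 ± 0.13 (edgeR adjusted p = 0.788), and with 2 SE on each side the difference lay between -0.31 and 0.21. The log2 ratio of PLEKHM1 to RAB7A differed by -0.12 (-4.77 ± 0.55 in BCLAF1-depleted and -4.65 ± 0.06 in control libraries, exact permutation p = 1), by 0.20 without BCLAF1-depleted replicate 3 and by 0.045 with the length and GC trends removed.

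**Figure D2:**
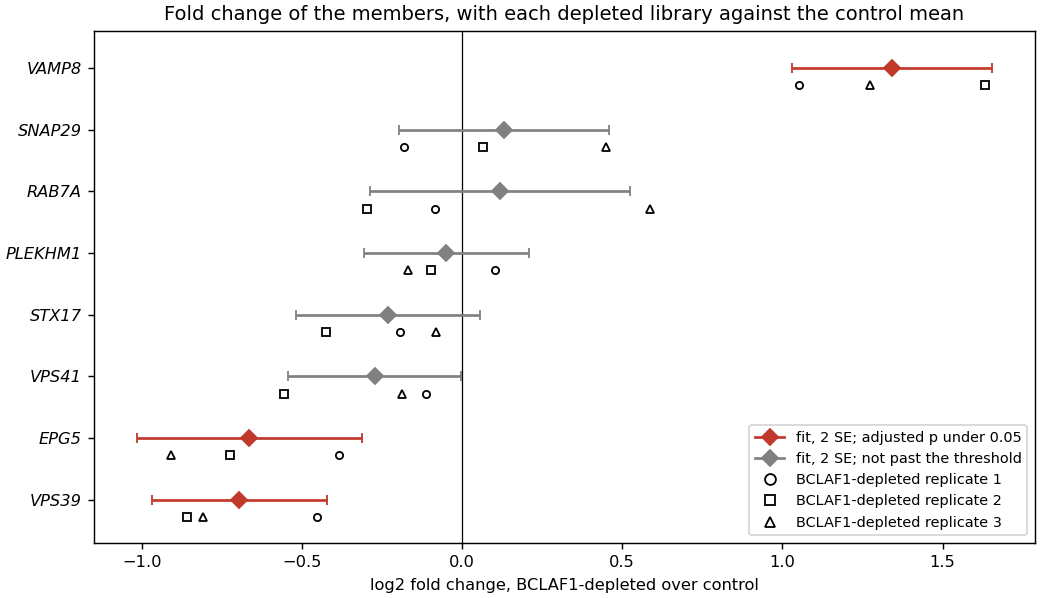
Log2 fold change of each gene, BCLAF1-depleted over control, from the edgeR fit (diamonds, bars of 2 SE), with each depleted library's log2 CPM minus the control mean as open symbols under it. VAMP8 lies at 1.34 and VPS39 and EPG5 at -0.70 and -0.66, with all 3 depleted libraries on the same side of 0. The depleted libraries of STX17 and VPS41, which did not pass the threshold, also all lie below 0. Those of SNAP29, RAB7A and PLEKHM1 fall on both sides.

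Per length, the 8 genes spanned a wide range of levels and kept most of their order. In BCLAF1-depleted cells the order by mean FPKM was RAB7A (47.9 ± 11.4), VAMP8 (22.9 ± 4.46), SNAP29 (15.5 ± 1.44), VPS41 (4.34 ± 1.05), STX17 (2.31 ± 0.366), VPS39 (2.31 ± 0.674), PLEKHM1 (1.76 ± 0.414) and EPG5 (0.263 ± 0.0874; SD, n = 3). In control cells it was RAB7A (54.9 ± 1.09), SNAP29 (17.6 ± 1.72), VAMP8 (11.1 ± 0.197), VPS41 (6.37 ± 0.194), VPS39 (4.50 ± 0.0635), STX17 (3.32 ± 0.336), PLEKHM1 (2.19 ± 0.0603) and EPG5 (0.500 ± 0.0400). All neighbours in the control order were separate in every library. In the depleted order STX17, VPS39 and PLEKHM1 overlapped, with ranges of 1.99 to 2.71, 1.84 to 3.08 and 1.40 to 2.21 FPKM. The median log2 fold change of all tested genes was -0.14 on log2(FPKM + 1) and -0.25 on log2(FPKM + 0.1). With counts scaled by library totals alone it was -0.21. FPKM levels between groups thus sit lower in BCLAF1-depleted cells than TMM-scaled CPM do.

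**Figure D3:**
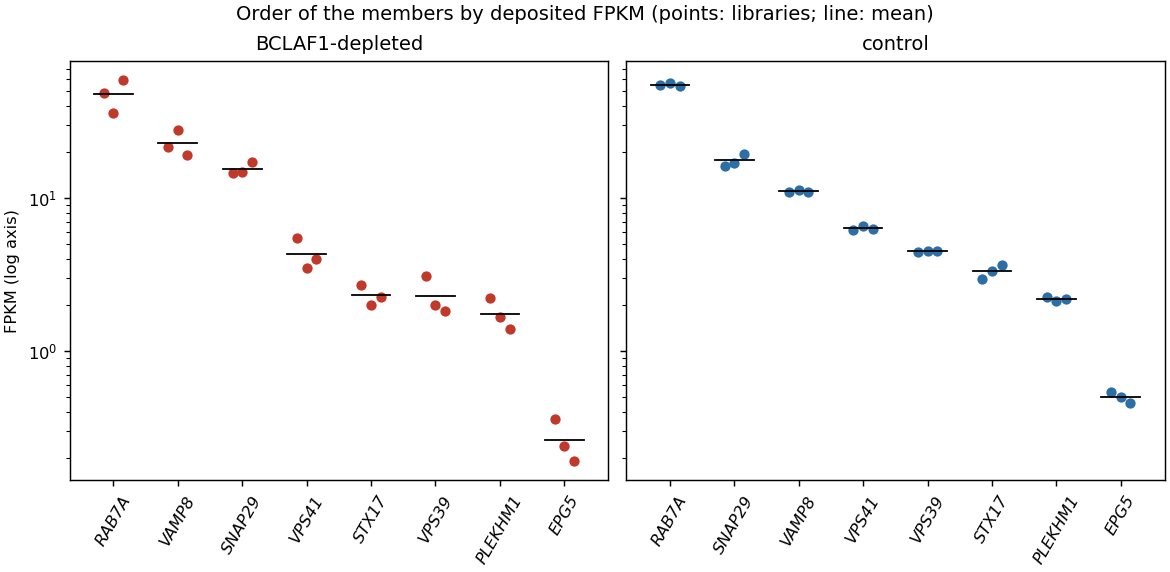
Deposited FPKM of the 8 genes on a log axis, ordered by their mean within BCLAF1-depleted (left) and control (right) libraries; points are libraries and lines are means. VAMP8 stands next to RAB7A at 19.2 to 27.8 FPKM in BCLAF1-depleted libraries and below SNAP29 at 10.9 to 11.3 FPKM in controls, and VPS39 moves level with STX17.

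Fold changes in these libraries varied with transcript length, and the members differ in length. The median log2 fold change was 0.35 among the 3155 genes with the shortest exons (up to 2289 bases) and -0.19 among the 3155 with the longest (from 7814 bases). VAMP8, with 990 bases of exon, belongs to the shortest class, where 93.4% of genes had a lower fold change than it. VPS39 (8354 bases) and EPG5 (13740 bases) belong to the longest, where 15.7 and 16.6% of genes had a lower one. With the trends of length and GC content removed, VAMP8 stood at 0.95 (edgeR adjusted p = 0.000434) and VPS39 at -0.55 (adjusted p = 0.00693), while EPG5 missed the threshold (-0.44, adjusted p = 0.0507). The part of length in these changes was not tested further. PLEKHM1 (9233 bases) is of the longest class too, and 61% of that class had a lower fold change.

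**Figure D4:**
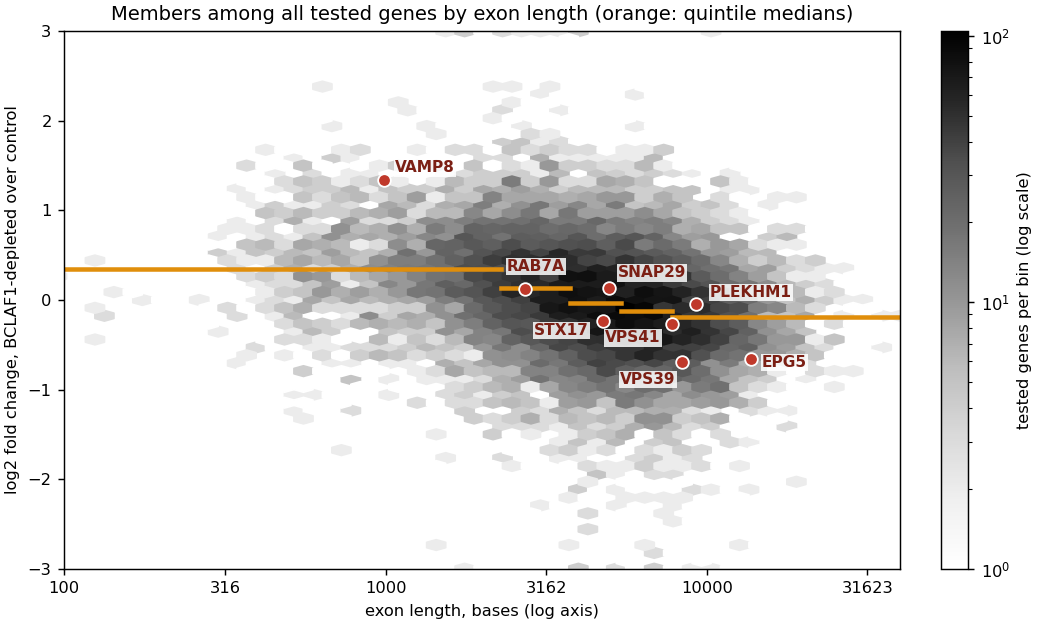
Log2 fold change (BCLAF1-depleted over control) against exon length on a log axis for all tested genes in grey bins, with the 8 genes as red points and the medians of 5 length classes as orange lines. Class medians go from 0.35 for the shortest to -0.19 for the longest genes; VAMP8 lies far above its class median and VPS39 and EPG5 lie below theirs.

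A wider list of fusion genes, drawn up by role, held 79 further genes in the files, of which 77 were tested. Of these, 5 rose and 18 fell, together 29.9%, against 35.8% of all tested genes, with a median log2 fold change of -0.13. Both counts changed with the scaling and with single libraries, as given for the whole list in the closing section. The HOPS core surrounds VPS39 and VPS41. Of its subunits, VPS11 fell, with 14.1, 13.4 and 15.2 CPM in the BCLAF1-depleted replicates, against 19.6, 19.6 and 17.8 CPM in the control replicates (-0.41 ± 0.12, edgeR adjusted p = 0.0234). VPS16 (-0.09), VPS18 (0.50) and VPS33A (0.43) did not pass the threshold. VPS18 had 40.6, 60.9 and 82.9 CPM in the depleted replicates, against 42.9, 39.8 and 47.2 CPM in the controls, so depleted replicate 1 fell within the control range. VPS8 (-0.81 ± 0.26) and TGFBRAP1 (-0.65 ± 0.15), the subunits that replace VPS41 and VPS39 in the early endosomal CORVET complex, fell too (adjusted p = 0.0355 and 0.00934). VPS11 and VPS8 lost their calls without any one of the control libraries (adjusted p 0.0550 to 0.109 and 0.0749 to 0.104), and VPS8 also without BCLAF1-depleted replicate 2 (0.129) or 3 (0.105) and with the length and GC trends removed (-0.54, 0.0828). VIPAS39 and VPS33B, listed beside these subunits, did not pass. Of these 8 listed genes 3 were thus called, or 37.5%, against 35.8% of all tested genes. Other genes on the same strand share 52.1% of the exon length of VPS33B, 21.5% of that of VPS33A and 16.6% of that of VPS16.

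The switch that loads and unloads RAB7A held the largest single change among the 77 tested genes, that of TBC1D2. Of 13 tested genes 4 fell and none rose, so 30.8% were called, under the 35.8% of all tested genes, with a median log2 fold change of -0.43. TBC1D2, a GTPase-activating protein that turns RAB7A off, had 17.3, 14.7 and 15.1 CPM in the BCLAF1-depleted replicates, against 50.5, 50.0 and 55.3 CPM in the control replicates. All depleted libraries lay close together and far under the controls (-1.73 ± 0.12, edgeR adjusted p = 1.94e-05). The related TBC1D2B (-0.69 ± 0.16) and TBC1D15 (-0.60 ± 0.14) fell as well, TBC1D15 not with the length and GC trends removed (-0.32, adjusted p = 0.0589) nor without control replicate 1 (adjusted p = 0.0557) or 2 (0.0511). CHM, the escort protein that presents Rab proteins for prenylation, had 5.84, 2.55 and 4.10 CPM in the depleted replicates, against 9.55, 8.95 and 9.56 CPM in the controls (-1.17 ± 0.24, adjusted p = 0.00622). The exchange factor genes MON1A (0.40), MON1B (0.17), CCZ1 (0.60) and CCZ1B (-0.67) did not pass, and reads of the near-identical copies CCZ1 and CCZ1B cannot be told apart with certainty.

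Among effectors of RAB7A and related lysosomal factors, 1 of 11 tested genes rose and 3 fell, and the 36.4% called were close to the 35.8% of all tested genes. RILP, which couples RAB7A to the dynein motor, had 10.4, 12.1 and 9.21 CPM in the BCLAF1-depleted replicates, against 5.18, 4.92 and 5.36 CPM in the control replicates (1.04 ± 0.15, edgeR adjusted p = 0.00106). Its call held in 17 of 18 alternative settings and was lost on log2(FPKM + 1) without a filter (0.58, limma adjusted p = 0.0615). Among those that fell were SNX14 (-0.65 ± 0.16) and OSBPL1A, a cholesterol-sensing RAB7A effector (-0.48 ± 0.15). OSBPL1A lost its call without 5 of the 6 libraries in turn (adjusted p up to 0.121) and with the trends removed (-0.27, 0.110). The BORC complex sits on lysosomes and governs their movement along microtubules. Of its 8 tested subunits 2 rose and none fell, 25% against 35.8% of all tested genes (17.8% as higher). They were BLOC1S2 (0.46 ± 0.11, adjusted p = 0.0107) and BORCS7 (0.44 ± 0.12, adjusted p = 0.0187), neither of which stayed past the threshold with library totals as the only scaling (0.24 and 0.22) or without control replicate 1 (0.0669 and 0.115) or 2 (0.0815 and 0.0668), nor BORCS7 without control replicate 3 (0.0600). Read-through transcripts share 12.7% of the exon length of BORCS7.

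Of 14 other listed SNAREs that were tested, 1 passed, or 7.14%, against 35.8% of all tested genes. It was VTI1B, a Qb-SNARE of late endosomes, with 174, 229 and 306 CPM in the BCLAF1-depleted replicates, against 146, 144 and 156 CPM in the control replicates (0.67 ± 0.19, edgeR adjusted p = 0.0208). Its call was lost with library totals as the only scaling (0.41, adjusted p = 0.0569), without any one of the control libraries (0.0641 to 0.0824) and without BCLAF1-depleted replicate 2 (0.0533), and exons of ARG2 on the opposite strand cover 15.6% of its exon length. YKT6, which acts beside STX17 on autophagosomes, was at 0.03 ± 0.15 and VAMP7 at -0.27 ± 0.20, neither past the threshold and both named after their values were seen. NSF, the ATPase that takes spent SNARE bundles apart, had 34.1, 14.4 and 20.8 CPM in the depleted replicates, against 44.2, 40.2 and 41.3 CPM in the controls (-0.86 ± 0.25, adjusted p = 0.0238). The NSF call was lost without each library other than BCLAF1-depleted replicate 1 (adjusted p 0.0528 to 0.0757). Its partners NAPA, NAPB and NAPG did not pass, so 1 of 4 genes of SNARE disassembly was called, 25% against 35.8% of all tested genes.

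Of 19 tested tethers and regulators 7 fell and 1 rose, 42.1% against 35.8% of all tested genes (18% as lower and 17.8% as higher). PIKFYVE, the kinase that makes the lysosomal phosphoinositide needed for lysosome turnover, had 5.82, 2.84 and 3.30 CPM in the BCLAF1-depleted replicates, against 10.5, 11.6 and 8.05 CPM in the control replicates (-1.33 ± 0.26, edgeR adjusted p = 0.00433). OGT, the glycosyltransferase that modifies SNAP29, had 37.0, 25.5 and 26.5 CPM in the depleted replicates, against 57.9, 54.5 and 53.3 CPM in the controls (-0.90 ± 0.15, adjusted p = 0.00244). LAMP2, a lysosomal membrane protein (-0.58 ± 0.18, adjusted p = 0.0333), and ATG14, which tethers membranes through STX17 and SNAP29 (-0.57 ± 0.17, adjusted p = 0.0249), also fell. Both lost their calls without each library other than BCLAF1-depleted replicate 1 (adjusted p 0.0744 to 0.111 for LAMP2 and 0.0656 to 0.0894 for ATG14), and LAMP2 with the trends removed as well (-0.38, 0.0682). The 1 gene that rose was the co-chaperone gene BAG3 (0.49 ± 0.13, adjusted p = 0.0146), named after its value was seen. BAG3 lost its call with library totals as the only scaling (0.26, adjusted p = 0.197), without any one of the control libraries (0.0565 to 0.0846) and with the trends removed (0.30, 0.0972).

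**Figure D5:**
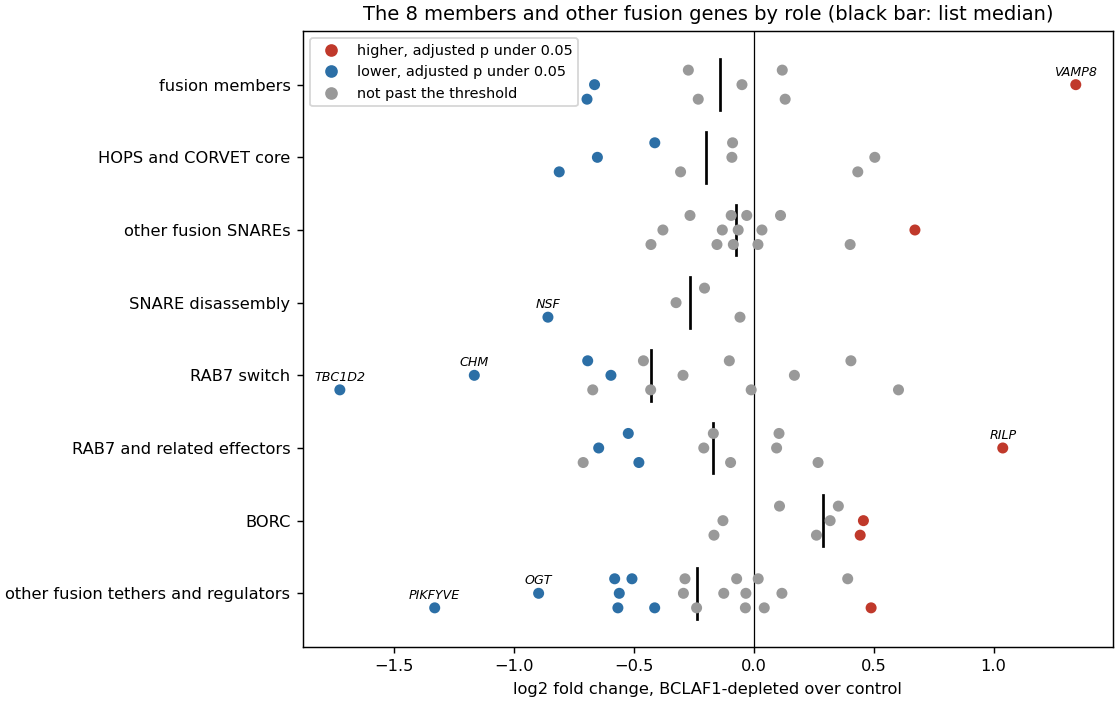
Log2 fold changes (BCLAF1-depleted over control) of the 8 genes, in the top row, and of 77 other tested fusion genes by role; red and blue points passed an adjusted p of 0.05 as higher and lower, grey points did not, and black bars are list medians. TBC1D2 at -1.73, PIKFYVE at -1.33, CHM at -1.17, VAMP8 at 1.34 and RILP at 1.04 lie farthest out.

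Among the 10173 genes averaging 5 CPM or more, the genes with the nearest profiles over the 6 libraries were found, by the Euclidean distance of log2 CPM minus the control mean. VAMP8 was nearest to TMEM139 (distance 0.169, log2 fold change 1.30), VPS39 to ZCCHC11 (0.0931, -0.70) and EPG5 to ARFGEF1 (0.0676, -0.64). Among the genes that did not pass, these were FBXW8 for STX17, BIN3 for SNAP29, CEP63 for RAB7A and PTCD1 for PLEKHM1, at distances of 0.0628 to 0.127. No gene of the 8 had another of them, or a gene of the wider list, as its nearest. The 8 genes and the 77 tested genes of the wider list are few beside the 10173 searched, so this outcome says little. The points are 6 libraries in 2 groups, so the distances are a description.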

How the data were processed

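Polyadenylated RNA of 3 BCLAF1-depleted and 3 control A549 libraries was sequenced from directional libraries, per the labels' protocols. The authors deposited whole-number read counts per gene and FPKM per gene (28878 rows), 1 column a library. The submitters' processing notes name bcl2fastq, TopHat2, edgeR and GRCh38; no source used here gives the counting tool, the annotation or whether strand was used. Groups and replicate numbers came from the sample titles; titles write "si", the protocol a hairpin.

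Counts were fitted across all genes with edgeR 4.0.16 in R 4.3.3 (glmQLFit, glmQLFTest, group only, TMM), after filterByExpr with a minimum count of 10 and total of 15, and adjusted by Benjamini-Hochberg over 15907 genes. SE is the log2 fold change over the root of F. Ratios of FPKM were tested by exact permutation. Exon length (union of exons), GC content and positions came from GENCODE 29 on GRCh38; 99.2% of tested genes had both length and GC. The length and GC trend was fitted per library with mgcv 1.9.3 as an offset; its use on the ratios was added after seeing the data. Alternatives also used DESeq2 1.42.0 and limma 3.58.1 on log2(FPKM + 1) and log2(FPKM + 0.1). The fit was tested on simulated data. At these depths 3 counts equal 0.0683 to 0.0898 CPM, for counting error only.

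The members and lists were chosen with earlier results of these data known; the motifs were chosen after the data were seen. Named genes are BCLAF1, MED23, the 8 members, up to 4 called genes with the largest change per role (or the most abundant where none passed), and the nearest profiles; other genes named to complete a complex were chosen after their values were seen. Some genes that this rule names are not reported here. MED23 had 4.74 ± 1.75 CPM in BCLAF1-depleted and 6.98 ± 1.17 CPM in control libraries (SD, n = 3; -0.56 ± 0.24, edgeR adjusted p = 0.0955). MED23 passed in 3 of 18 alternatives: without BCLAF1-depleted replicate 1 (-0.93, adjusted p = 0.00306), without a low-count filter (0.00824) and with the replicate block (0.0456).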

Additional observations from a re-analysis of the deposited data

How the results depend on the processing

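Among the 8 fusion genes VAMP8 was called higher in all 18 alternatives. The count of lower genes was 2, but 1 under log2(FPKM + 1) without a filter or after removal of the length and GC trend, and 1 to 3 with 1 library left out. EPG5 was the gene lost in each setting with a count of 1, and VPS41 was gained without BCLAF1-depleted replicate 1 and with log2(FPKM + 1) (adjusted p = 0.0406) and log2(FPKM + 0.1) (0.0385) over the tested genes. Other tools, scalings and filters on counts left the count at 1 higher and 2 lower. In the wider list, 5 higher and 18 lower genes became 1 and 21 with library totals alone, 8 and 14 with the GC and length trend removed, 1 higher with log2(FPKM + 1) or log2(FPKM + 0.1), 0 and 6 with log2(FPKM + 1) without a filter, and 1 to 10 higher and 7 to 26 lower with 1 library left out (1 and 7 when control replicate 1 or 2 was left out, 2 and 10 for control replicate 3, 11 lower without BCLAF1-depleted replicate 2, 10 higher without BCLAF1-depleted replicate 1). Over all genes, 1283 were then higher and 3662 lower with library totals alone (median -0.21), 1131 and 4453 with log2(FPKM + 1), 1126 and 4381 with log2(FPKM + 0.1), 573 and 2057 with log2(FPKM + 1) without a filter, and 1383 to 1519 higher and 1549 to 1669 lower when any one control was left out. Without BCLAF1-depleted replicate 1, where the wider list had 10 higher and 26 lower, 3741 of 16277 genes were higher and 4195 lower. Without BCLAF1-depleted replicate 2, 1987 of 16211 genes were higher and 2063 lower. With the GC and length trend removed, 2831 of 15775 genes were higher and 2531 lower. The cause of these shifts was not tested.

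Same-numbered libraries share only a number in the labels. The correlation of their deviations from the group means was 0.036, 0.047 and 0.119 for numbers 1 to 3, each library correlating best with its own number, which is a hint from the data. With the replicate number as a block the 8 genes kept 1 higher and 2 lower, and the wider list had 8 higher and 20 lower. Over all 15907 tested genes, 2886 were then higher and 3121 lower, against 2827 and 2870 without the block.

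Signs turned for genes and for 1 ratio that did not pass. With library totals alone SNAP29 was at -0.12, RAB7A at -0.14, BIN3 at -0.13 and CEP63 at -0.16. With log2(FPKM + 1), with or without a filter, SNAP29 was at -0.17, RAB7A at -0.22, BIN3 at -0.17 and CEP63 at -0.21, and with log2(FPKM + 0.1) they were at -0.18, -0.23, -0.20 and -0.24. With 1 library left out SNAP29 ranged from -0.059 to 0.24, RAB7A from -0.19 to 0.29, PLEKHM1 from -0.15 to 0.0050, BIN3 from -0.12 to 0.24 and CEP63 from -0.20 to 0.28, each with its turned sign without BCLAF1-depleted replicate 3. With the trend removed PLEKHM1 was at 0.059, and with the replicate block added PLEKHM1 was at 0.053 and RAB7A at -0.037. PLEKHM1 to RAB7A differed by -0.28 to 0.20 with 1 library left out. With the trend removed, an alternative chosen after seeing the data, the ratios differed by 0.045 (PLEKHM1 to RAB7A), -0.74 (SNAP29 to VAMP8), -1.07 (STX17 to VAMP8), -0.46 (EPG5 to RAB7A), -0.54 (VPS39 to VPS41) and -0.32 (STX17 to SNAP29). On log2(FPKM + 1) without a filter, TGFBRAP1 (adjusted p = 0.0548), TBC1D2B (0.0569) and SNX14 (0.0506) lost their calls. EPG5, at 112 to 315 counts, had the fewest counts of the members, and the part of depth in its lost calls was not tested.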
